A study of Homo sapiens with 2 samples.

Results

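The EGF receptor family and its ligands were taken as 10 genes, which made up 10 of the 58302 gene identifiers in each count table. They were the 4 receptors EGFR, ERBB2, ERBB3 and ERBB4, and the 6 ligands AREG, EREG, HBEGF, TGFA, BTC and EGF. Each was found by matching its Ensembl identifier to the listed symbol. The rule itself uses no measured value, but the set was picked with earlier results of these data known. The cells were HK-2, an immortalised human kidney line of proximal tubule origin, used between passages 7 and 11 and grown with 10% fetal bovine serum. For 24 h they carried an adenovirus, a vector that brings a gene into cells, with either the coding sequence of Bmal1, a transcription factor of the circadian clock, or green fluorescent protein. Polyadenylated RNA was sequenced in 1 library per vector, and both libraries shared the line, the serum and infection by an adenovirus. No uninfected library was analysed here, and no value below has a replicate.

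The receptors of this family are tyrosine kinases of the cell surface that act in pairs. EGFR binds all 6 of the ligands, ERBB2 binds no ligand and serves as a partner, ERBB3 has little kinase activity of its own and, like ERBB4, binds neuregulins. The ligands are made as membrane proteins, and metalloproteases of the ADAM family cut them loose. In kidney tubules the family is known for driving growth and repair after injury, and EGF itself is made mainly by the thick ascending limb and distal tubule rather than by the proximal tubule.

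The gene starts of 9 of the 10 members were found in RefSeq on GRCh38.p14, the other being ERBB3, with 11 windows of 250 bases before a start. Those of EREG and AREG are shown because these ligands are neighbours on chromosome 4, that of HBEGF as an abundant ligand whose ratio between the libraries lay near 1, and that of EGF as the measured member farthest from 1. They run 5′ to 3′ on the gene's strand and lie at chr4:74364895-74365144 (plus), chr4:74444886-74445135 (plus), chr5:140346604-140346853 (minus) and chr4:109912633-109912882 (plus). Capitals mark matches, on either strand, to the letters of 5 motifs: the E-box CACGTG bound by CLOCK and BMAL1, the cAMP response element TGACGTCA, the AP-1 site TGANTCA, the TATA box TATAAA and the GC box GGGCGG.
EREG: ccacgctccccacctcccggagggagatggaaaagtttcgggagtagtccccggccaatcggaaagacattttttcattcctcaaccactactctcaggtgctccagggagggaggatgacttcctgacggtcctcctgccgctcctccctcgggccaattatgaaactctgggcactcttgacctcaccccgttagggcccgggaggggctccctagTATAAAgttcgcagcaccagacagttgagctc
AREG: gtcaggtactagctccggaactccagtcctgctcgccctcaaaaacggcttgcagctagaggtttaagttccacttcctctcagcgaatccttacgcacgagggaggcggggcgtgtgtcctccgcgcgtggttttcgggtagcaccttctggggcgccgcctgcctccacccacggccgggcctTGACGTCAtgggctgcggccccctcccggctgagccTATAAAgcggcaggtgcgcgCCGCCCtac
HBEGF: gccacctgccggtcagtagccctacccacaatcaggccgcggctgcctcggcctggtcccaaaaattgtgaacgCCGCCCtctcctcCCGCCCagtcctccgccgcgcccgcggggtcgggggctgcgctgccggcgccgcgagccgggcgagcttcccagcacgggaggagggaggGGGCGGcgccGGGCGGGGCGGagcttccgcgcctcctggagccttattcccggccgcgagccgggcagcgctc
EGF: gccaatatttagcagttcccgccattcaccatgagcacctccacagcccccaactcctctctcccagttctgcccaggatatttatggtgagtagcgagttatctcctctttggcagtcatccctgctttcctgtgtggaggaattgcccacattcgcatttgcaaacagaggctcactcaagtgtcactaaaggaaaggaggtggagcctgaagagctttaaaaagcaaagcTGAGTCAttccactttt

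The E-box letters were in 0 of the 11 member windows, against 6.32% of all 34943 RefSeq windows of this length. AREG held the cAMP response element 65 to 58 bases before its start, letters found in 1.63% of all windows. EREG and AREG shared a TATA box at 32 to 27 and 29 to 24 bases before the start, and the third window with one was an alternative start of EGFR. TATA letters were in 10.8% of all windows. HBEGF held GC boxes and no TATA letters, with a pair of GC boxes that overlapped by a base, and no other matches overlapped. GC boxes were in 5 of the 11 member windows and 42.5% of all. EGF held an AP-1 site 17 to 11 bases before its start, as did 3 member windows in all and 6.59% of all windows. These matches describe letters only, and no binding was measured.

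Paired values are given with the library labelled Ad-GFP first and that labelled Ad-Bmal1 second. The libraries held 20032652 and 20051735 counts, and 1 CPM, a count scaled by TMM to library size, stood for 20.3 and 19.8 counts. Counts of BMAL1, the target of the vector, were 204 and 133, a ratio of 0.667 with a 95% counting interval of 0.532 to 0.834. The target was thus lower under the label that names it, and each direction here is one between labels. The species of the vector's Bmal1 sequence is not given in the sources used here, and exchanged labels and a vector transcript that the human gene count misses cannot be told apart. Of 14 markers of the line 8 reached 1 CPM, and they included the keratin genes KRT8, KRT18 and KRT19, PAX8 and GGT1. Of the markers of a differentiated proximal tubule, the endocytic receptor gene LRP2 had 0 counts in both libraries, and CUBN, SLC34A1 and AQP1 had 1 to 8. Summed markers were at 0.148 and 0.252 CPM for endothelium, and at 0.0987 and 0.101 CPM for leukocytes, with 3 of 5 and 5 of 6 genes at 0 in both. Fibroblast markers summed to 79.2 and 100.4 CPM, mostly COL1A1, and their part in the results was not tested. The others had few counts: COL1A2 4 and 1, COL3A1 0 and 1, PDGFRB 16 and 20, DCN 130 and 91, and LUM 171 and 195. In bulk RNA, fewer cells of a type and less RNA per cell cannot be told apart.

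Of the 10 members 9 had counts, and 8 were measured, meaning that they reached 1 CPM in at least 1 library. EGFR and ERBB2 were the receptors with high counts, and EREG, TGFA, HBEGF and AREG the ligands. ERBB3, EGF and BTC were low, and ERBB4 had 0 counts in both libraries. A ratio here divides the scaled level of the second library by that of the first, with an exact 95% interval for counting error only. No measured member reached a 2-fold difference, and of them EGF alone reached 1.5-fold.

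**Figure D1:**
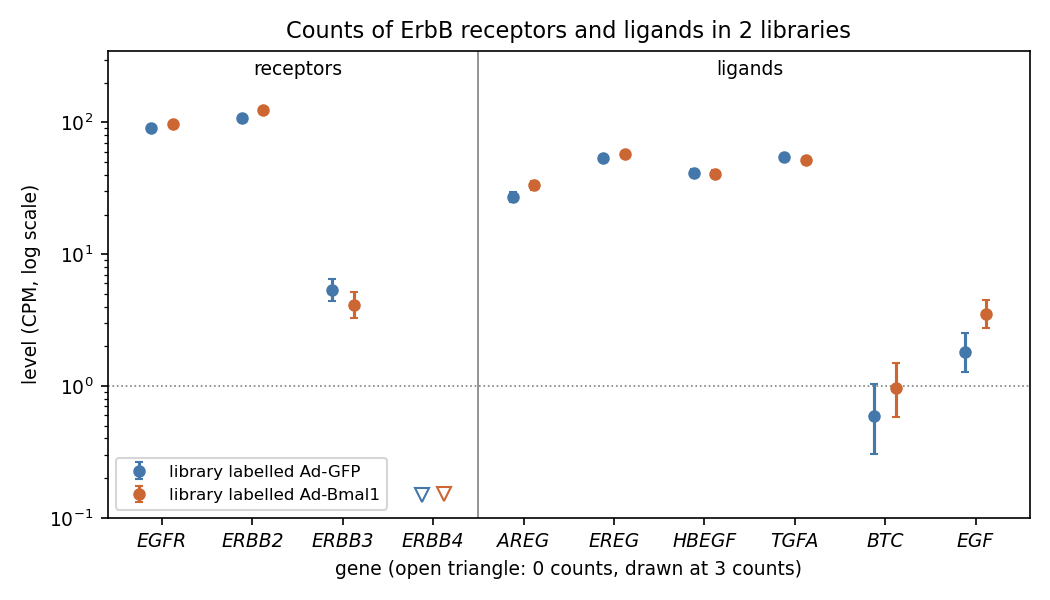
Level of each receptor (left) and ligand (right) in CPM on a log axis, with Ad-GFP as labelled in blue and Ad-Bmal1 as labelled in orange, and exact 95% Poisson intervals as bars. The dotted line is 1 CPM. ERBB4 had 0 counts in both libraries and is drawn as open triangles at 3 counts, a 1-sided limit for a count of 0.

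For ERBB2, the receptor without a ligand of its own, 2191 and 2450 counts were found. Its ratio of 1.14 (1.08 to 1.21) was the highest of the receptors. ERBB2 lies on chromosome 17 (39687914 to 39730426, GRCh38, plus strand), and its gene body overlaps MIEN1 and PGAP3 on the opposite strand. Those neighbours had 521 and 438 counts and 338 and 242 counts, both lower in the library where ERBB2 was higher. Without a known strand setting, reads from the overlap cannot be assigned.

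EGFR, the receptor of all 6 ligands, had 1843 and 1926 counts (chromosome 7, 55019021 to 55211628, plus strand). The ratio was 1.07, with an interval of 1.00 to 1.14 whose lower bound was 1.003. Scaled by total counts the ratio was 1.04 (0.979 to 1.11). After removal of a trend on transcript length it was 0.982 (0.921 to 1.05), so the difference did not hold, nor its direction under that setting. The length used was that of the longest coding transcript, 9821 bases, against a median of 3844 in the basic set of GENCODE. The trend was not refitted with median lengths. EGFR-AS1, an antisense gene within EGFR, had 2 and 0 counts.

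ERBB3, the neuregulin receptor with weak kinase activity, had 109 and 82 counts (chromosome 12, 56076799 to 56103505, plus strand). Its ratio of 0.770 was the lowest of the measured members, and the interval of 0.571 to 1.03 included 1. ERBB4, the other neuregulin receptor, lies on chromosome 2 (211375717 to 212538841, minus strand) and had 0 counts in both libraries. A count of 0 was taken to allow up to 3 counts, a 1-sided limit, or 0.148 and 0.151 CPM. The exact Poisson intervals used for the other members reach 0.182 and 0.186 CPM here, and no ratio is given.

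EGFR and ERBB2 together made up nearly all receptor counts. The shares here are of counts, without correction for transcript length. ERBB2 took 52.9% of them (Wilson 95% interval 51.4 to 54.4) and 55.0% (53.5 to 56.4). EGFR took 44.5% (43.0 to 46.0) and 43.2% (41.8 to 44.7), and ERBB3 2.63% (2.19 to 3.16) and 1.84% (1.48 to 2.28). The intervals of each receptor overlapped between the libraries, but overlap alone does not show equal shares. Against ERBB3, the odds ratio between the libraries was 1.49 (1.10 to 2.02) for ERBB2 and 1.39 (1.03 to 1.89) for EGFR. Both intervals excluded 1, while that of EGFR against ERBB2 included it (0.857 to 1.02). The summed receptor counts were 4143 and 4458, a ratio of 1.10 (1.06 to 1.15), led by ERBB2, and this was 1.04 (0.99995 to 1.09) with the length trend removed.

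AREG, which encodes amphiregulin, had 550 and then 661 counts. The ratio of 1.23 (1.10 to 1.38) was the highest among the ligands with more than 1000 counts in all. EREG, the gene of epiregulin, had 1081 and 1145 counts, a ratio of 1.08 whose interval of 0.996 to 1.18 included 1. AREG lies at 74445134 to 74455009 and EREG at 74365143 to 74388751 on the plus strand of chromosome 4.

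HBEGF encodes heparin-binding EGF-like growth factor, the membrane form of which is also the diphtheria toxin receptor. It had 836 and 799 counts (chromosome 5, 140332843 to 140346631, minus strand), and the ratio of 0.978 (0.886 to 1.08) lay near 1. TGFA, the gene of transforming growth factor alpha, had 1107 and 1023 counts (chromosome 2, 70447280 to 70554193, minus strand), with a ratio of 0.946 (0.868 to 1.03). Neither was shown to differ, and for both the interval leaves out a difference as large as 1.5-fold in counting error alone.

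EGF, the ligand that names the family, was low, with 37 and 70 counts (chromosome 4, 109912884 to 110012266, plus strand). Its level was 1.83 CPM (exact Poisson interval 1.29 to 2.52) and 3.53 CPM (2.75 to 4.46), intervals that did not overlap. The ratio was 1.94 (1.28 to 2.97), and 1.88 with the length trend removed. Beside it, the markers of the distal nephron summed to 2.66 and 2.27 CPM, with 1 of 7 measured and UMOD, SLC12A1, AQP2 and CALB1 at 0 in both libraries. BTC, the gene of betacellulin, had 12 and 19 counts, under 1 CPM in both libraries (chromosome 4, 74744759 to 74794686, minus strand). Its ratio of 1.62 had an interval of 0.747 to 3.66.

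**Figure D2:**
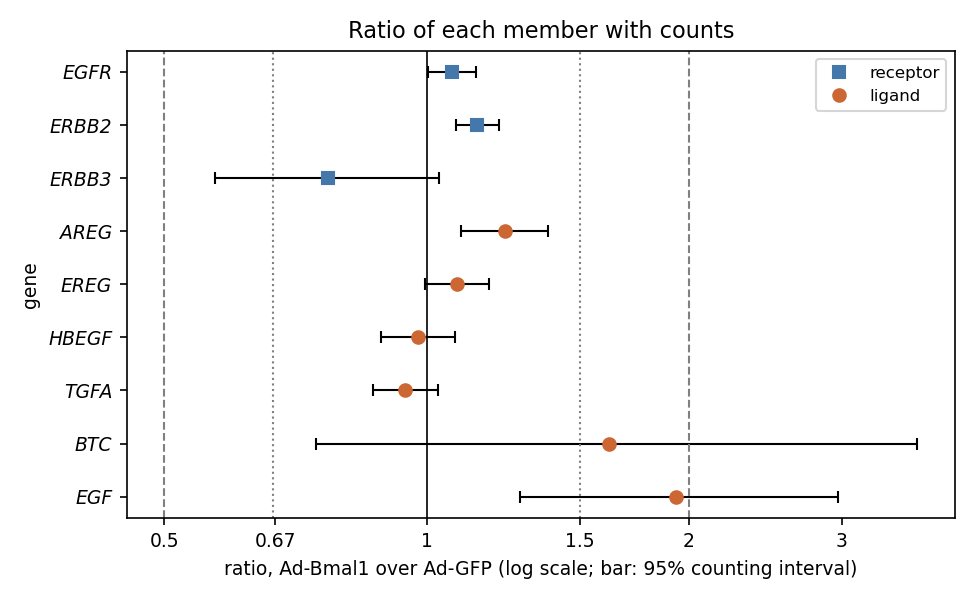
Ratio of the scaled levels of each member with counts, Ad-Bmal1 over Ad-GFP as labelled, on a log axis, with exact 95% counting intervals as bars, receptors as squares and ligands as circles. Dotted lines mark 1.5-fold and dashed lines 2-fold. EGF at 1.94 lies past the 1.5-fold line, and the interval of BTC (0.747 to 3.66) is the widest.

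The 1.5-fold rule with an interval excluding 1 called 1 of the 8 measured members higher and 0 lower, against 4.41% and 4.9% of all 13231 measured genes. The 2-fold rule called 0 members in either direction, against 1.13% higher and 1.74% lower. Intervals lay above 1 for EGFR, ERBB2, AREG and EGF, or 4 of 8, against 23.8% of all measured genes, and below 1 for none, against 21.6%. The median log2 ratio of the 8 was 0.11, beside 0.00 over all measured genes. For EGFR the interval excluded 1 under TMM only, and the count was 3 under each of the 4 other scalings.

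Depth sets how small a difference leaves 1 out of the interval. Of the 5658 genes that reached 1000 counts over both libraries, 37.2% had an interval above 1 and 27.6% below, and the middle 90% of ratios ran from 0.767 to 1.38. The 6 members at that depth had ratios of 0.946 to 1.23, within that range, with 3 intervals above 1 and 0 below. Among the 5566 genes with at least 100 and under 1000 counts the middle 90% of ratios ran from 0.651 to 1.49, which held ERBB3 but not EGF. Of those genes 4.94% were higher by the 1.5-fold rule. EGF, with 37 and 70 counts, lay near the lower limit of 100 counts. Among the 2007 genes with under 100 counts the middle 90% of ratios ran from 0.447 to 2.05, which would hold EGF at 1.94. Of these, 8.77% were higher by the 1.5-fold rule.

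**Figure D3:**
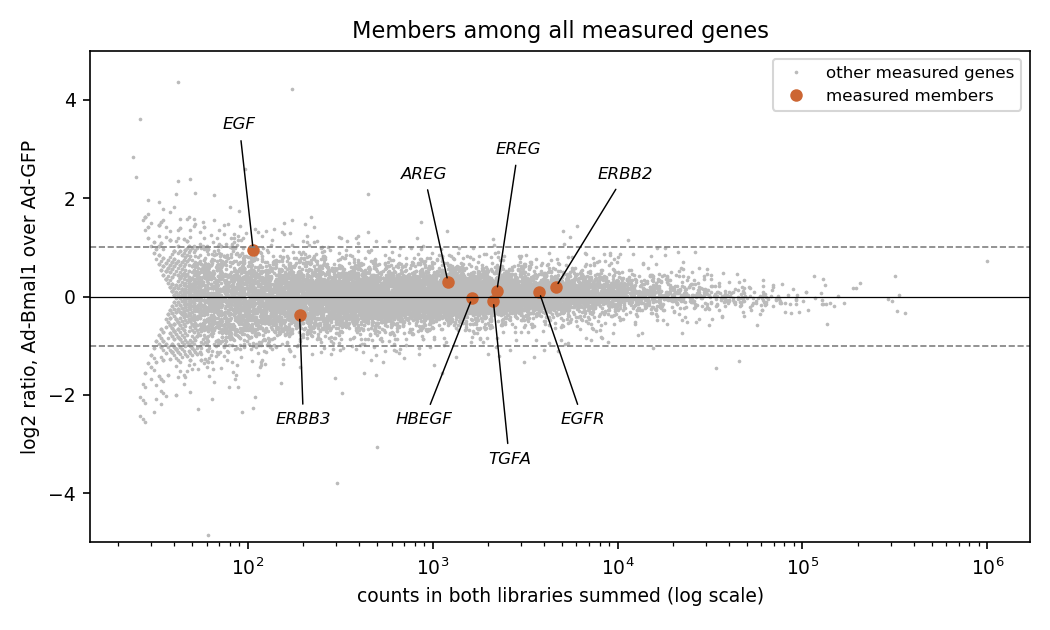
Log2 ratio, Ad-Bmal1 over Ad-GFP as labelled, against the summed counts of both libraries on a log axis, for all 13231 measured genes (grey) and the 8 measured members (orange). Dashed lines mark 2-fold. The 6 members with 1000 or more counts lie within the dense band around 0, and EGF lies near its upper edge at its depth.

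Levels of different genes were compared per kilobase of the longest coding transcript. In the library labelled Ad-GFP the order was ERBB2 at 22.6 CPM per kb (21.6 to 23.5), AREG at 21.9 (20.1 to 23.8), HBEGF at 17.3 (16.1 to 18.5), TGFA at 12.7 (11.9 to 13.4), EREG at 11.5 (10.9 to 12.3) and EGFR at 9.26 (8.84 to 9.69). The pairs ERBB2 with AREG and TGFA with EREG had overlapping intervals, and overlap alone does not settle their order. ERBB3 followed at 0.908 CPM per kb (0.746 to 1.10), then EGF at 0.374 (0.263 to 0.515) and BTC at 0.210 (0.109 to 0.367), the last pair overlapping. In the library labelled Ad-Bmal1 the same overlapping pairs stood in the reverse order, with AREG at 26.9 CPM per kb, ERBB2 at 25.8, EREG at 12.5 and TGFA at 11.98. EGF at 0.724 CPM per kb (0.564 to 0.915) there overlapped ERBB3 at 0.699 (0.556 to 0.868).

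This order depends on the transcript length assumed. TGFA has 5 coding transcripts in the basic set of GENCODE, with a median length of 985 bases against 4310 for the longest, and EGFR 7, with 3844 against 9821. With median lengths TGFA stood at 55.4 CPM per kb and EGFR at 23.6 in the library labelled Ad-GFP, so that TGFA came first of the 9 genes with counts. ERBB2 was then at 24.9 and AREG at 24.7, while ERBB3 (1.63), EGF (0.407) and BTC (0.210) remained the lowest.

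The make-up of the ligand counts was compared within each library, which needs no scaling between libraries. These shares of counts are not corrected for transcript length, and levels per length are given above. TGFA took 30.6% of ligand counts (Wilson 95% interval 29.08 to 32.1) and 27.5% (26.1 to 28.98). EREG took 29.8% (28.4 to 31.3) and 30.8% (29.3 to 32.3), and HBEGF 23.1% (21.7 to 24.5) and 21.5% (20.2 to 22.8). AREG took 15.2% (14.05 to 16.4) and 17.8% (16.6 to 19.0), and EGF 1.02% (0.742 to 1.40) and 1.88% (1.49 to 2.37). The intervals of AREG, TGFA and EGF did not overlap between the libraries, AREG and EGF being larger and TGFA smaller in the library labelled Ad-Bmal1.

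Set against each other, 18 of the 36 pairs of members with counts had an odds ratio between the libraries whose 95% counting interval excluded 1, with no adjustment for the number of pairs. EGF was in 7 such pairs of its 8 and BTC in 0. Counts of AREG stood at 0.497 and 0.646 times those of TGFA, an odds ratio of 1.30 (1.13 to 1.502). Against HBEGF the odds ratio of AREG was 1.26 (1.08 to 1.46). ERBB2 counts stood at 20.1 and 29.9 times those of ERBB3, an odds ratio of 1.49 (1.10 to 2.02). An odds ratio compares a pair of genes and does not say which of them differed. Pairs of other genes were not computed, so the count of 18 says nothing particular to the family.

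Ligand counts summed to 3623 and 3717, a ratio of 1.05 (1.003 to 1.10), but that interval included 1 under each of the 4 other scalings. Per receptor count there were 0.874 and 0.834 ligand counts. The odds ratio of 0.953 (0.895 to 1.02) included 1.

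Among the ErbB ligands outside the 10 genes, NRG1, a neuregulin that binds ERBB3 and ERBB4, was the one measured. It had 1379 and 1418 counts, with a ratio of 1.05 (0.976 to 1.13). Per length its level was 11.5 and 12.1 CPM per kb, close to that of EREG at 11.5 and 12.5. Epigen (EPGN), NRG3 and NRG4 had at most 1 count in a library and NRG2 had 0 in both. Of the neuregulin receptors ERBB3 was low and ERBB4 was at 0.

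EPGN, EREG, AREG and BTC lie in this order within 74308473 to 74794686 on chromosome 4. Within 1 Mb on either side 16 of 52 annotated genes were measured. On the side of EPGN lie chemokine genes of neutrophil attraction, of which 4 were measured. Their ratios were 0.671 (0.660 to 0.682) for CXCL8, 0.628 (0.600 to 0.657) for CXCL5, 0.476 (0.381 to 0.593) for CXCL3 and 0.902 (0.841 to 0.968) for CXCL2, of which the last pair are close paralogs whose reads may be split. None of these intervals overlapped those of EREG (0.996 to 1.18) or AREG (1.10 to 1.38). How often neighbouring genes elsewhere differ in this way was not computed. Of all genes with 1000 or more counts, 37.2% had an interval above 1 and 27.6% below. The gene between the groups, MTHFD2L, had 154 and 120 counts and a ratio of 0.797 (0.623 to 1.02). ALB, the albumin gene at the far edge of the window, had 9 and 165 counts. On the side of BTC, G3BP2 had a ratio of 1.14 (1.09 to 1.20) and THAP6 one of 0.585 (0.377 to 0.894). The intervals of RCHY1, ODAPH, CDKL2 and USO1, also on that side, included 1.

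**Figure D4:**
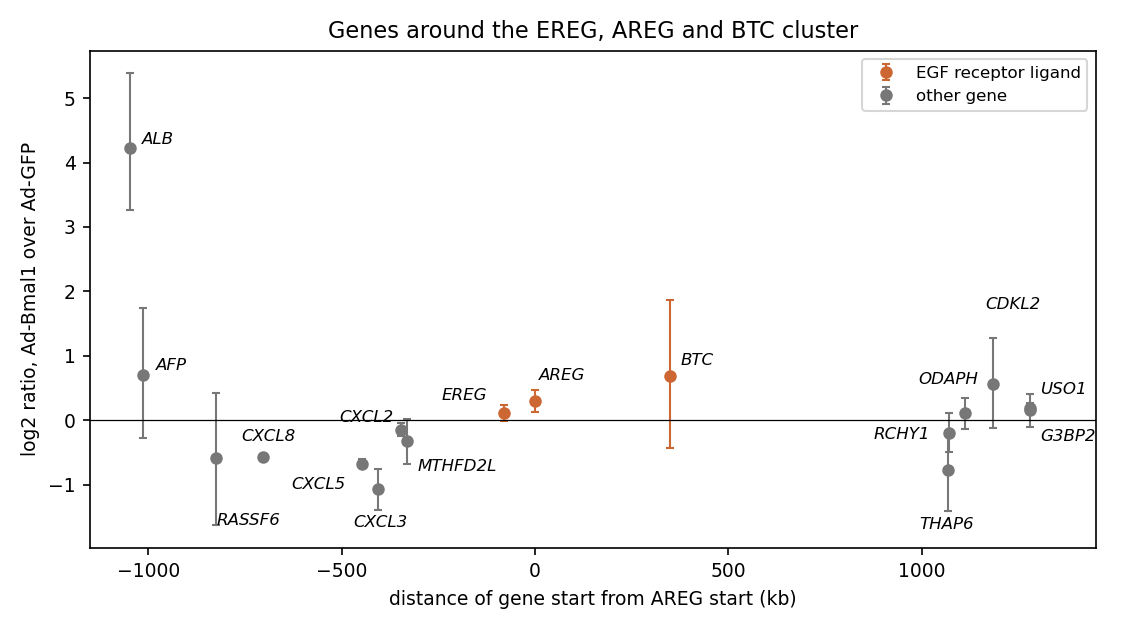
Log2 ratio, Ad-Bmal1 over Ad-GFP as labelled, of the 16 measured genes and BTC, by the distance of each gene's start from that of AREG in kilobases, with 95% counting intervals as bars. The ligand genes (orange) lie above 0, but the intervals of EREG and BTC cross it. CXCL8, CXCL5, CXCL3 and CXCL2 lie below 0, and BTC has the widest interval of the ligands.

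Of 12 listed genes that release the ligands or bring them to the surface 11 were measured, with a median log2 ratio of -0.06. Intervals lay above 1 for 4 and below 1 for 3, beside 23.8% and 21.6% of all measured genes, and both shares grow with depth, as given above. ADAM12, a metalloprotease able to cut HBEGF, had 835 and 1419 counts, a ratio of 1.74 (1.60 to 1.90). ADAM17, the main sheddase of AREG, EREG, HBEGF and TGFA, had 617 and 829 counts (1.38, 1.24 to 1.53), and ADAM10, which cuts EGF and BTC, 509 and 597 (1.20, 1.06 to 1.35). The interval of ADAM10 included 1 with the length trend removed (1.09, 0.967 to 1.23). ADAM19, a sheddase of neuregulin, had 487 and 655 counts (1.38, 1.22 to 1.55). FRMD8, which stabilises the complex of ADAM17 with iRhom proteins, had 1756 and 1043 counts (0.608, 0.562 to 0.657), and RHBDF2, the gene of iRhom2, 1240 and 1077 (0.889, 0.818 to 0.965). The third gene with an interval below 1 was ADAM15 at 0.871 (0.825 to 0.918).

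All 20 listed adaptors and kinases of the RAS-MAPK cascade were measured, with a median log2 ratio of 0.09. Intervals lay above 1 for 7 of the 20 and below 1 for 1, beside 23.8% and 21.6% of all measured genes, shares that grow with depth. Under the 4 other scalings and with the length trend removed 2 lay below 1. The number above 1 was 6 by total counts, by DESeq2 size factors and by totals without mitochondrial and the top 20 genes. SOS2, an exchange factor that loads RAS with GTP, had 21 and 47 counts (2.29, 1.34 to 4.03) and was the single gene of these 5 lists past 2-fold. Its paralog SOS1 had 33 and 58 counts (1.80, 1.15 to 2.85). Both genes had under 100 counts in all. Of all measured genes at that depth 5.13% were higher by the 2-fold rule and 8.77% by the 1.5-fold rule. RPS6KA3, the ERK-activated kinase RSK2, had 358 and 547 counts (1.56, 1.37 to 1.79), but 1.46 with the length trend removed, under the 1.5-fold rule. GRB2, which couples the receptors to SOS, had 4185 and 4795 counts (1.17, 1.12 to 1.22), and the interval below 1 was that of MAPK3, which encodes ERK1 (0.833, 0.765 to 0.908).

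Effectors of the PI3K, PLC-gamma and STAT branches had a median log2 ratio of 0.16 over 19 measured genes of 20. Intervals lay above 1 for 9 and below 1 for 0, beside 23.8% and 21.6% of all measured genes, and both shares grow with depth, as given above. By total counts the interval of AKT1 lay below 1 (0.945, 0.903 to 0.988). It also did so by DESeq2 size factors and by totals without mitochondrial and the top 20 genes. With the length trend removed the median was 0.04 and 2 intervals lay below 1. PIK3R3, a regulatory subunit of PI3K, had 91 and 168 counts (1.89, 1.46 to 2.47), and the subunit PIK3R1 68 and 114 (1.72, 1.26 to 2.35). PIK3R2 had 0 counts in both libraries. Overlap with other genes was looked up for the 10 members only, and with the counting tool unknown a 0 need not mean absent RNA.

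Genes that take receptors down showed a median log2 ratio of -0.03 over 20 measured of 22. Intervals lay above 1 for 6 and below 1 for 5, beside 23.8% and 21.6% of all measured genes, shares that grow with depth. None was called at 1.5-fold, but with the length trend removed USP8, a deubiquitinase of endosomes, was (0.632, 0.444 to 0.896), and 7 intervals lay below 1. The TMM interval of USP8 included 1 (0.508 to 1.03), and the length used was that of its longest coding transcript, 19026 bases. RAB7A, a GTPase of late endosomes, and EPN1, an adaptor of clathrin pits, had the highest mean counts, with ratios of 1.05 (1.02 to 1.08) and 1.003 (0.966 to 1.04). By total counts the interval of RAB7A included 1 (0.998 to 1.05). The ratio of EPN1 was under 1 with the 4 other scalings, but its intervals there included 1. With the length trend removed the EPN1 ratio was 0.886 (0.854 to 0.920), for a longest coding transcript of 16219 bases. CBL and CBLB, the ubiquitin ligases that mark EGFR for breakdown, had ratios of 1.41 (1.27 to 1.55) and 1.42 (1.10 to 1.84). The 5 below 1 were ERRFI1, LRIG1, SH3KBP1, TNK2 and RAB5A. ERRFI1, whose product MIG6 inhibits the EGFR kinase, had 5315 and 3931 counts (0.757, 0.726 to 0.789). LRIG1, another inhibitor of the receptors, had 96 and 68 (0.725, 0.523 to 0.999).

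Among 10 genes used as a readout of ERK activity 9 were measured, with a median log2 ratio of -0.18. Intervals lay above 1 for 2 and below 1 for 5, beside 23.8% and 21.6% of all measured genes, shares that grow with depth. The 5 below 1 were CCND1, PHLDA1, DUSP6, ETV5 and ETV4. CCND1, which encodes cyclin D1, had 3976 and 2765 counts (0.712, 0.678 to 0.747), DUSP6, a phosphatase of ERK, 508 and 374 (0.753, 0.657 to 0.863), and PHLDA1 5384 and 3987 (0.758, 0.727 to 0.790). EPHA4, an ephrin receptor gene, was the one past 1.5-fold, with 213 and 389 counts (1.87, 1.58 to 2.22), and EPHA2 had a ratio of 1.20 (1.15 to 1.25). The feedback inhibitors SPRY2 (1.08, 0.975 to 1.20) and SPRY4 (1.06, 0.829 to 1.36) had intervals that included 1.

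**Figure D5:**
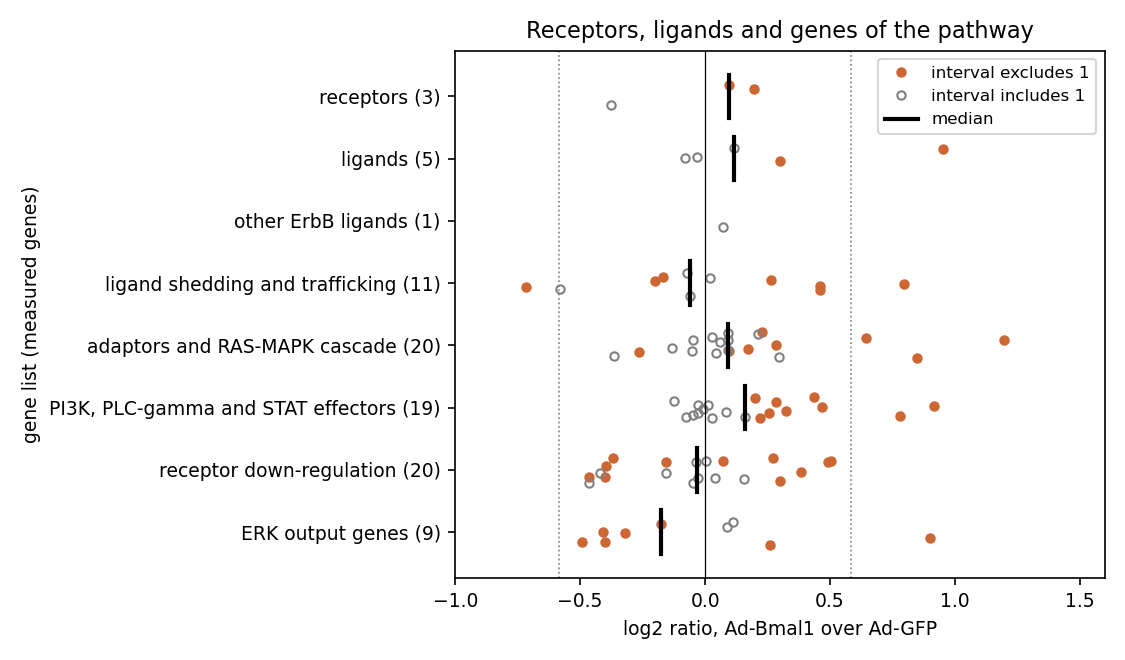
Log2 ratio of each measured gene, Ad-Bmal1 over Ad-GFP as labelled, by list, with the number measured in brackets, filled where the 95% counting interval excludes a ratio of 1, and a black bar at the median of lists with more than 2 genes. Dotted lines mark 1.5-fold. The medians run from -0.18 for the ERK output genes to 0.16 for the PI3K, PLC-gamma and STAT effectors.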

How the data were processed

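RNA sequencing of 1 library per vector gave raw counts per gene, deposited by the authors with Ensembl identifiers. Per the submitters' processing notes HISAT2 and GRCh38 (hg38) were used; the counting tool, strand setting and gene models were not given in the sources used here. Groups came from sample titles, and the line's full name is spelled differently for the libraries.

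TMM factors from edgeR 4.0.16 (R 4.3.3) were 1.01 (Ad-GFP) and 0.988 (Ad-Bmal1). With 1 library per group no test could be fitted, and no p-value is given. Ratios have exact 95% conditional binomial (Clopper-Pearson) intervals, computed in Python 3.11.15 with scipy 1.17.1. Intervals and floors (3 counts) cover counting error only, and no molecular identifiers are named, so reads need not be independent molecules. The steps were tested on simulated data.

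The members and gene lists were chosen with earlier results of these data known. All members are named; of each list, genes past 2-fold and up to 4 past 1.5-fold are named, or, where none was, the 2 with the highest mean count. Other genes of the lists were chosen after their values were seen. Counts of each list are given beside the shares over all 13231 measured genes.

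Symbols matched 98.7% of identifiers. Coordinates and transcript lengths are from GENCODE 29, which held all 10 members. No stretch of 31 bases was shared between the longest coding transcripts of any pair of members, and at most 3.64% of such stretches of a member (EREG) occurred in another gene. Alternatives were 4 other scalings (total counts, upper quartile, DESeq2 1.42.0 size factors, and totals that left out mitochondrial genes and the top 20), no filter, a minimum of 10 CPM, a prior count of 2 and removal of a linear trend on transcript length. The trend used the longest transcript of each gene, a coding one where there was any. Median transcript lengths were added for levels only, after seeing the data.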

Additional observations from a re-analysis of the deposited data

How the results depend on the processing

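No paired analysis was possible because each group had 1 library, and for the same reason no replicate could be left out. With the trend on transcript length removed (0.25 on the log2 scale per 10-fold length), the median log2 ratio of the receptors was -0.026 in place of 0.10, the summed receptor ratio 1.04 in place of 1.10, and 1 member, ERBB3 (0.735), had an interval below 1 in place of 0. These values rest on the longest transcript of each gene, and median lengths were not tried for the trend. At a minimum of 10 CPM 0 members were past 1.5-fold, because EGF is left out. The median of the shedding list was then 0.021 in place of -0.06. The other 108 values of counts, sums and medians kept their direction and stayed within the limits set for each. These were a 1.5-fold change for a count, the TMM interval for a sum, and a spread of the list's own ratios for a median. The limits are wide. They passed the fall of the PI3K, PLC-gamma and STAT median from 0.16 to 0.04 with the length trend removed. They also passed the change from 4 to 3 members with an interval above 1. HBEGF (0.978) was at 1.001 with the length trend removed. Every other member kept its side of 1 under all settings, except EGFR as given above. EGF ranged from 1.88 to 1.94, AREG from 1.20 to 1.32 and ERBB2 from 1.11 to 1.14. The 4 other scalings and the filters moved the median log2 ratio of all genes to between -0.03 and 0.02. At this depth a ratio for BTC could not be told from 1, and variation between cultures is unknown.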
